A study of Mus musculus with 4 samples.

Results

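The nuclear-encoded subunits of respiratory complexes II to V were followed in RNA-seq libraries of mouse soleus, a slow and oxidative hindlimb muscle, from 2 muHuR-KO mice and 2 control littermates. The genes were taken by name alone, with no measured value used: every row of the gene table whose symbol is Sdha, Sdhb, Sdhc, Sdhd, Cyc1 or Cycs, or opens with Uqcr, Atp5, or Cox followed by a digit from 4 to 8 and a letter. This gave 49 of the 23420 genes in the table. They comprised 4 subunits of complex II, 9 of complex III, the electron carrier cytochrome c (Cycs), 18 of complex IV and 15 of complex V. The remaining 2 rows, Atp5s and Atp5sl, carry the name of ATP synthase but encode a coupling factor and a related protein, and they were kept apart. Reads were found for 47 of the 49 genes. The testis forms Cox7b2 and Cox8c had 0 reads in every library, which allows up to 3 reads in each, or between 2.13 and 5.52 normalized counts depending on the library.

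All 4 mice were C57BL/6 and 10 weeks old. The labels give the genotype of Control-3.8 and Control-3.12 as MyoDCre-;LoxP-/- and that of muHuR-KO-1.9 and muHuR-KO-3.9 as MyoDCre+;LoxP-/-. In the study's methods the floxed part is exon 2 of Elavl1, the gene of the RNA-binding protein HuR, and Cre is driven by the MyoD promoter. That promoter is active in the muscle lineage, so vessels, connective tissue and other cells of the dissected muscle keep the gene. The Elavl1 count, which sums reads over all exons, was 1350 in Control-3.8, 1190 in Control-3.12, 1210 in muHuR-KO-1.9 and 1205 in muHuR-KO-3.9. A count over the whole gene cannot check the loss of a single exon, and the groups below are those of the labels.

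Electrons from succinate enter the inner mitochondrial membrane at complex II, pass through complex III to cytochrome c and reach oxygen at complex IV, while complexes III and IV pump protons. Complex V lets those protons flow back through a ring of c subunits and uses the rotation to make ATP. Slow muscle is rich in mitochondria, and several complex IV subunits have a separate gene for heart and skeletal muscle beside the form used in most other cells.

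Related genes of the c ring are shown first, since their counts depend on telling like sequences apart. Atp5g1, Atp5g2 and Atp5g3 encode the same mature c subunit with different import sequences, and the stretches below are the last 225 coding bases of each, with capitals at the 57 positions where the genes are not all alike.
Atp5g1: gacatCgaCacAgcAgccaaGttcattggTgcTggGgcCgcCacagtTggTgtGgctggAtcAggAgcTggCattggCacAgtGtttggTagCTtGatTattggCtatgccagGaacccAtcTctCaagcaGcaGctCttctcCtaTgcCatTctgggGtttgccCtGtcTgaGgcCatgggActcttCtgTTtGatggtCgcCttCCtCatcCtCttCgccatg
Atp5g2: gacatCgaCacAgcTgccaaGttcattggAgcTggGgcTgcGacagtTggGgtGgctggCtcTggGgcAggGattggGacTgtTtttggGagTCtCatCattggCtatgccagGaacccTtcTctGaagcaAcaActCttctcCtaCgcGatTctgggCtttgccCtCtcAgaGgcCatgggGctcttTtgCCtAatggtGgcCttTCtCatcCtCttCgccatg
Atp5g3: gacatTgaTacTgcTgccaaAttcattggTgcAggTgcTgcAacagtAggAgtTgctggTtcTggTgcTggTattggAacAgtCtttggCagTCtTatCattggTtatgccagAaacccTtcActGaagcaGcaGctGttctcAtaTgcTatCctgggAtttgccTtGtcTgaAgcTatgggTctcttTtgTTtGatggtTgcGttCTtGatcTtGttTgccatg
The genes lie on chromosomes 11, 15 and 2 of GRCm38, and the stretches come from GENCODE transcripts of that build. All 75 codons encode the same residue in the 3 genes, while 168 of the 225 bases are shared by all of them. Atp5g1 and Atp5g2 share 191 bases (84.9%), with a longest shared run of 20 bases. Atp5g3 shares 180 bases with Atp5g1 and 177 with Atp5g2. Copies elsewhere in the genome were closer still. Every 100-base window of the Atp5g2 transcript, and 57.3% of those of Atp5g1, also occurred in a transcript of another annotated gene, against 0% for Atp5g3. Over all 49 genes, 13 shared at least 1 such window and 10 shared more than 10% of them, among them Atp5l (61.3%), Cox7c (44.4%), Atp5h (32.7%) and Cycs (24.7%). Counts of these genes are less certain, since the way reads with several matches were counted is not stated.

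Between 13301715 and 33348893 reads were counted per library, with Control-3.12 the shallowest. The 49 genes took 2.64% of the reads in Control-3.8 (95% Wilson interval 2.63 to 2.64%), 2.23% in Control-3.12 (2.22 to 2.24%), 2.30% in muHuR-KO-1.9 (2.30 to 2.31%) and 2.21% in muHuR-KO-3.9 (2.20 to 2.21%), intervals that cover counting error only. One library stood apart from the rest. When each library was set against the other 3 with limma over 13287 genes (those averaging 10 normalized counts or more), Control-3.8 had 1649 genes called lower and 47 called higher at an adjusted p under 0.05, while the other libraries had 0 called either way. In those 3 comparisons between 22 and 189 genes passed an unadjusted p under 0.05 in each direction. Results are therefore given with both controls, with Control-3.8 alone and with Control-3.12 alone.

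The respiratory genes were among the most abundant of the muscle. Their median level of 10841 normalized counts per kilobase of transcript stood against 120.4 for all tested genes. On the length-scaled scale the order ran from Cox6a2, the muscle form of a complex IV subunit, at 60202 normalized counts per kilobase down to Cox6b2, a testis form, at 27.2. The highest subunit of complex V was Atp5b, the catalytic beta subunit, at 39960, that of complex III was Uqcrb, an accessory subunit, at 21438, and that of complex II was Sdhb, the iron-sulfur protein, at 10334. The median by complex was 6255 in complex II, 11469 in complex III, 14987 in complex IV and 16098 in complex V.

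**Figure D1:**
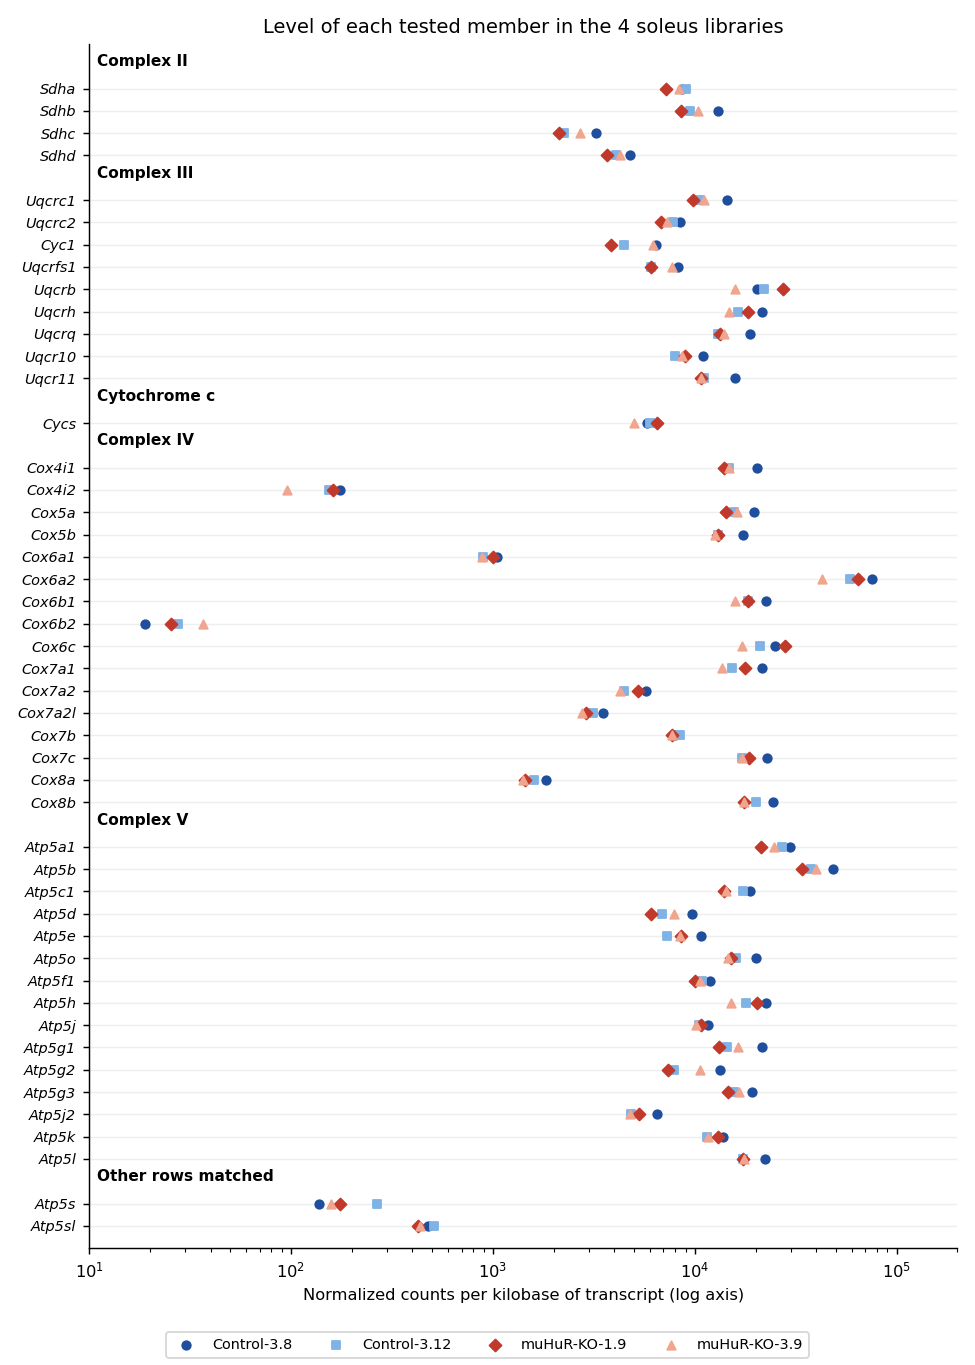
Level of each of the 47 tested genes in normalized counts per kilobase of transcript (log axis), 1 point for each of the 4 libraries, grouped by complex. Most subunits lie in 1 band around the median, Cox6a2 is highest with a mean of 60202, and Cox4i2, Cox6a1, Cox6b2, Atp5s and Atp5sl lie at least an order of magnitude below the median of 10841.

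The main comparison asked whether loss of HuR in muscle changed the RNA of the respiratory chain. With both controls, 46 of the 47 tested genes had a lower mean log2 value in the libraries labelled muHuR-KO, with a median log2 fold change of -0.20 on the log2(normalized count + 1) scale, against -0.01 for all 13287 tested genes, of which 50.7% were lower. The differences of single genes ran from -0.40 for Cox4i2 to 0.38 for Cox6b2. None of the 47 was called at an adjusted p under 0.05 in either direction, beside 0% of all tested genes in each direction, and none had an unadjusted p under 0.05, beside 0.632% of all genes higher and 0.135% lower. Every 95% interval of the 47 contained 0, and the median interval ran from -0.86 to 0.47. edgeR and DESeq2 on the recovered reads also called 0 of the 47, with 0 at an unadjusted p under 0.05, beside 0.866% of all genes higher and 0.12% lower by edgeR and 0.444% and 0.113% by DESeq2. Under other scalings 43 of the 47 were lower with TMM factors, 41 by edgeR and 45 by DESeq2, and Uqcrb was among those that changed sign. In bulk RNA, fewer fibers of a kind and less RNA for each fiber cannot be told apart.

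The shift below 0 depended on which control was used. Against Control-3.8 alone, 44 of the 47 genes were lower in the libraries labelled muHuR-KO, beside 52.8% of all tested genes, with a median log2 fold change of -0.37 against -0.04 for all genes. Against Control-3.12 alone, 28 of the 47 were lower, beside 53.9% of all genes, and the median was -0.03, equal to the -0.03 of all genes. With Control-3.8 alone, limma called 0 of the 47, beside 9.69% of all genes called higher and 0.128% called lower. Unadjusted p-values under 0.05 were found for 4 of the 47, all lower, which is 8.51% of them beside 4.21% of all genes. These were Uqcr11, Cox4i1, Atp5g1 and Atp5g2, picked out here after their values were seen, and their adjusted p by limma was 0.1505 for Uqcr11 and higher for the others. edgeR called 0 of the 47 against Control-3.8, beside 10.3% of all genes higher and 0.143% lower, and DESeq2 called 0, beside 7.71% and 0.0828%. At an unadjusted p under 0.05 edgeR found 1 lower (Uqcr11), beside 2.57% of all genes, and DESeq2 found 2 (Uqcr11 and Atp5g1), beside 1.31%. Against Control-3.12 alone, limma called 0 of the 47, beside 0.00753% of all genes in each direction.

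**Figure D2:**
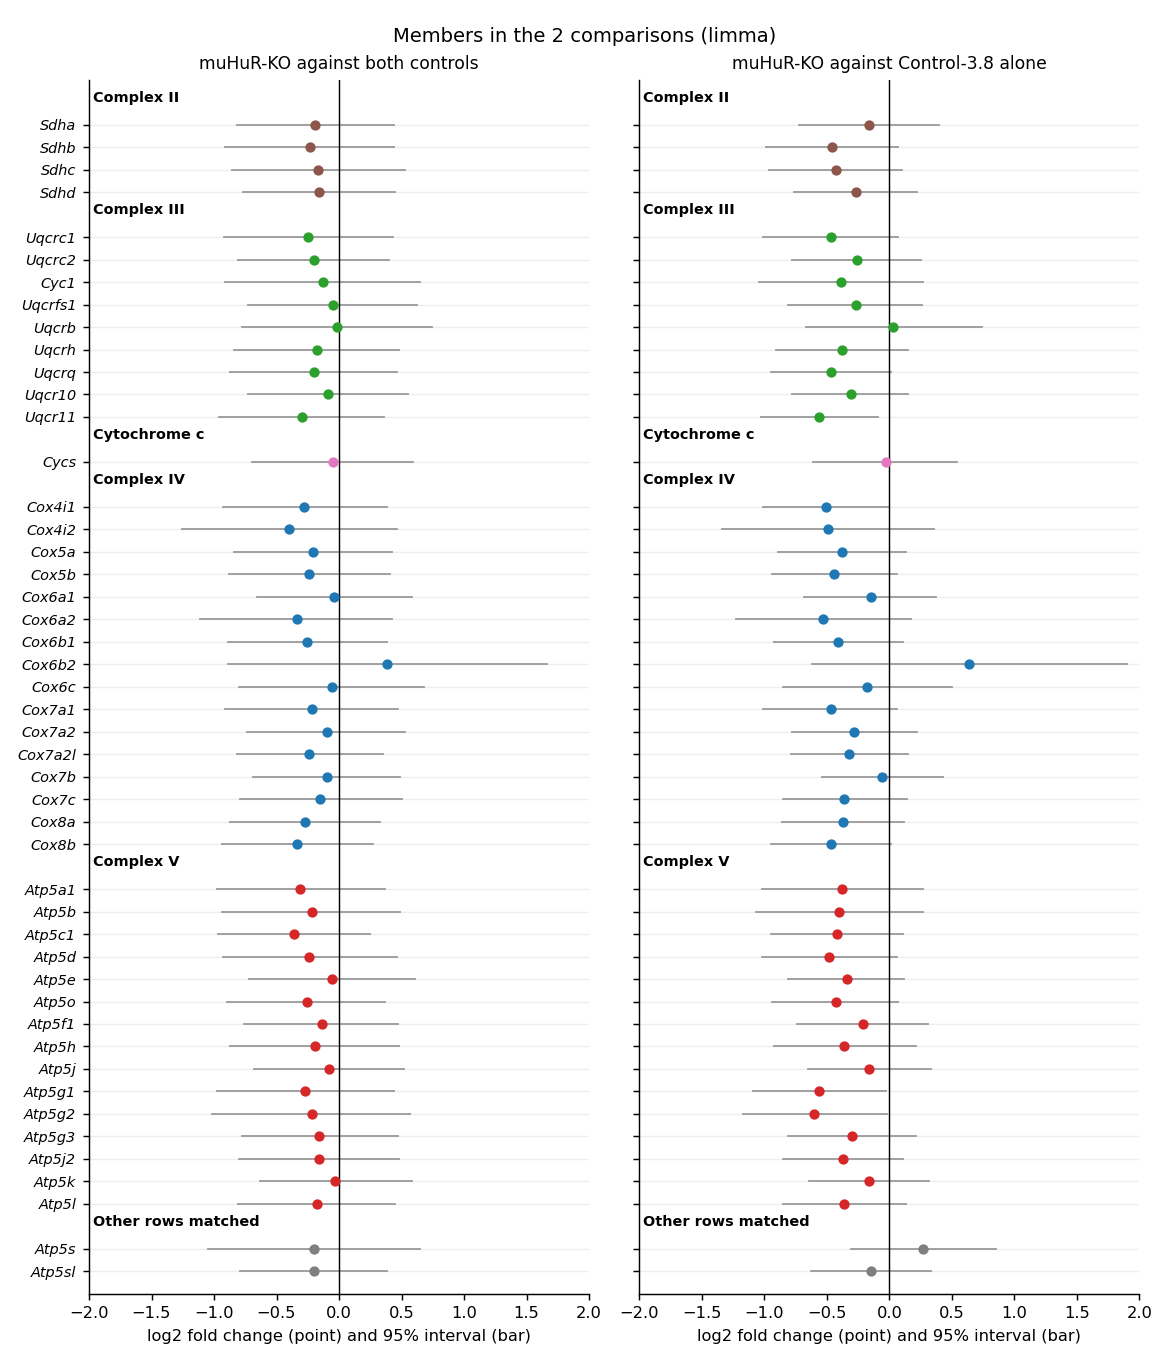
log2 fold change (point) with its 95% interval (bar) from limma for each of the 47 genes, libraries labelled muHuR-KO against both controls on the left and against Control-3.8 alone on the right, colored by complex. Nearly all points lie left of 0, with medians of -0.20 and -0.37, and every interval on the left contains 0.

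Control-3.8 had the highest value of the 4 libraries for 39 of the 47 genes, beside 37.5% of all tested genes. That count included all 15 subunits of complex V, 13 of 16 in complex IV, 8 of 9 in complex III and 3 of 4 in complex II. Set against the other 3 libraries, it was higher by a median of 0.36 on the log2 scale, while Control-3.12 was at -0.09, muHuR-KO-1.9 at -0.14 and muHuR-KO-3.9 at -0.12. By limma 0 of the 47 were called in Control-3.8, beside 0.354% of all genes called higher, and 10 were higher at an unadjusted p under 0.05, which is 21.3% of them beside 8.14% of all genes, with 0 lower beside 19.4%. edgeR found 5 higher at that threshold, beside 6.6% of all genes, with 0 lower beside 20.2%, and DESeq2 found 10, beside 5.44%. Control-3.8 exceeded Control-3.12 for 40 of the 47 genes. For 35 of the 47 the distance between the 2 controls was wider than the difference between the group means, and for 24 the distance between the 2 libraries labelled muHuR-KO was. A distance between single libraries varies more than a difference of means, and the share over all genes is not given. These 2 counts are therefore a description only.

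**Figure D3:**
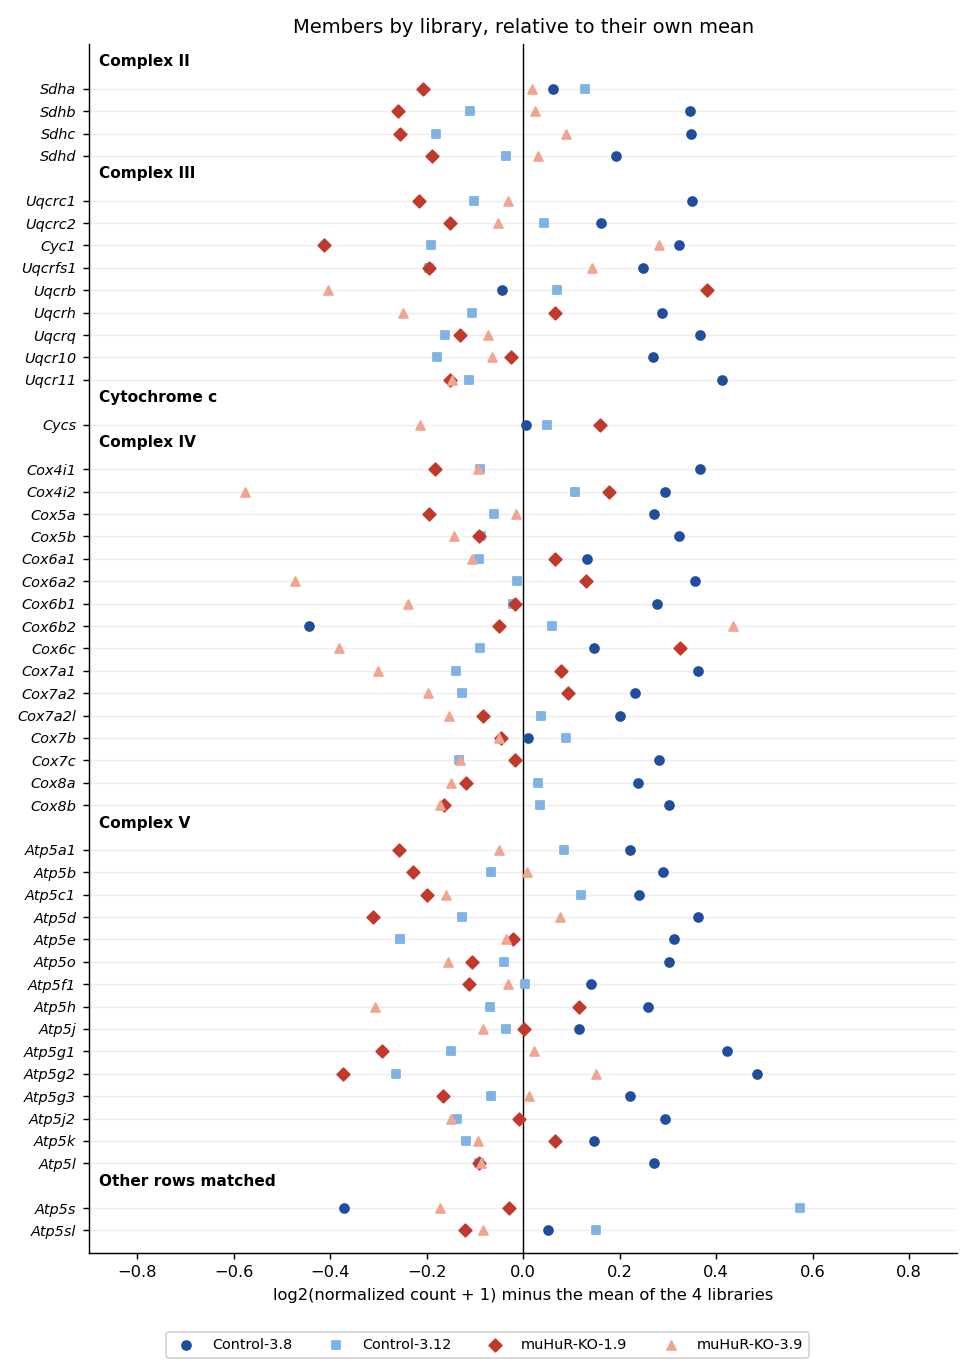
log2(normalized count + 1) of each of the 47 genes minus its own mean over the 4 libraries, by complex. Control-3.8 is the rightmost point for 39 genes, and the order of the 2 libraries labelled muHuR-KO changes between complexes II and IV.

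Groups that did not overlap were found in 1 direction. Both libraries labelled muHuR-KO lay below both controls for 14 of the 47 genes (29.8%), beside 13% of all tested genes, and above both for 0, beside 9.57%. The 14 were 1 in complex II, 2 in complex III, 6 in complex IV, 4 in complex V and Atp5sl. The widest gap was that of Atp5c1, which encodes the gamma subunit forming the central shaft of complex V. Its normalized count was 21978 in Control-3.8, 20238 in Control-3.12, 16204 in muHuR-KO-1.9 and 16662 in muHuR-KO-3.9. Here the controls lay close together and so did the other pair, with 0.28 on the log2 scale between the nearest libraries of the groups. The log2 fold change was -0.36 ± 0.26 (SE), the lowest p of the 47 but with an adjusted p of 0.9999 by limma, and it was -0.30 against Control-3.12 alone. Next were Cox8b (gap 0.20), Cox8a (0.15) and Atp5sl (0.13), described below.

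Complex II, or succinate dehydrogenase, also works in the citric acid cycle. Its 4 genes had a median log2 fold change of -0.18 with both controls and -0.03 against Control-3.12 alone. Sdhb, the iron-sulfur subunit and the highest of the complex for its length, had 14806 normalized counts in Control-3.8, 10801 in Control-3.12, 9745 in muHuR-KO-1.9 and 11856 in muHuR-KO-3.9. Sdhc, a membrane anchor and the lowest for its length, had 10250, 7099, 6745 and 8562 in the same order. In both genes muHuR-KO-3.9 lay above Control-3.12, so the groups overlapped, with log2 fold changes of -0.23 ± 0.29 and -0.17 ± 0.30 (SE). All 4 subunits were lowest in muHuR-KO-1.9, which lay below muHuR-KO-3.9 by 0.22 to 0.34 on the log2 scale.

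Complex III passes electrons from ubiquinol to cytochrome c. Its 9 genes had a median log2 fold change of -0.18 with both controls, -0.38 against Control-3.8 and 0.02 against Control-3.12. Cyc1, the cytochrome c1 subunit and the lowest of the complex for its length, had 9746 normalized counts in Control-3.8, 6821 in Control-3.12, 5853 in muHuR-KO-1.9 and 9472 in muHuR-KO-3.9. Uqcrb moved the other way between the libraries labelled muHuR-KO, with 14660 in muHuR-KO-1.9 and 8499 in muHuR-KO-3.9 around 10910 and 11808 in the controls. Thus the pair of mutant libraries enclosed the controls for Uqcrb and came close to doing so for Cyc1, with distances of 0.79 and -0.69 on the log2 scale between muHuR-KO-1.9 and muHuR-KO-3.9. The fold changes, -0.02 ± 0.33 for Uqcrb and -0.13 ± 0.34 for Cyc1 (SE), rested on which of the mutant libraries was kept: without muHuR-KO-1.9 they were -0.42 and 0.22, and without muHuR-KO-3.9 they were 0.37 and -0.48. Uqcr11, a small accessory subunit, gave the lowest p of the 47 against Control-3.8. It had 7072 normalized counts in Control-3.8 and between 4783 and 4921 in the other 3, so that the fold change of -0.56 ± 0.21 (SE) against Control-3.8 (adjusted p = 0.15 by limma) became -0.04 against Control-3.12.

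Cytochrome c is the small soluble carrier between complexes III and IV. Cycs had 18196 normalized counts in Control-3.8, 18763 in Control-3.12, 20248 in muHuR-KO-1.9 and 15633 in muHuR-KO-3.9, and the mutant libraries again enclosed the controls. Its log2 fold change was -0.05 ± 0.28 (SE) with both controls and -0.03 ± 0.26 against Control-3.8.

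Complex IV, cytochrome c oxidase, contains the subunits with separate muscle genes. The muscle forms Cox6a2, Cox7a1 and Cox8b exceeded their ubiquitous counterparts Cox6a1, Cox7a2 and Cox8a in every library, on the length-scaled scale. Cox6a2 had 51305 normalized counts in Control-3.8, 39747 in Control-3.12, 43832 in muHuR-KO-1.9 and 28866 in muHuR-KO-3.9, while Cox6a1 had 597.6, 511.4, 570.7 and 506.1. Only muHuR-KO-3.9 was below both controls for Cox6a2 and Cox6a1 alike, the latter by little. Per kilobase, Cox6a2 exceeded Cox6a1 by 72.1, 65.3, 64.5 and 47.9 times in the same order. Cox7a1 had 8478, 5991, 6971 and 5357 normalized counts and Cox7a2 had 3787, 2951, 3438 and 2813, so that both forms ordered the libraries alike. Their length-scaled ratio was 3.75, 3.40, 3.40 and 3.19. Cox8b had 8741, 7259, 6326 and 6289 normalized counts and Cox8a had 1012, 875.6, 789.4 and 773.3. For both Cox8 genes the libraries labelled muHuR-KO lay together below the controls, and the ratio stayed between 12.2 and 13.2.

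The log2 fold changes of the muscle forms were -0.34 ± 0.33 for Cox6a2, -0.22 ± 0.30 for Cox7a1 and -0.34 ± 0.26 for Cox8b (SE), and those of the ubiquitous forms were -0.04 ± 0.27, -0.10 ± 0.27 and -0.27 ± 0.26. A ratio within a library does not depend on the scaling between libraries, and in these 3 pairs both mutant libraries had a lower muscle-to-ubiquitous ratio than both controls. The mean log2 ratio of Cox6a2 to Cox6a1 was 5.79 ± 0.30 (SD, n = 2) in the libraries labelled muHuR-KO and 6.10 ± 0.10 (SD, n = 2) in the controls. For Cox7a1 to Cox7a2 the values were 1.72 ± 0.06 and 1.84 ± 0.10, and for Cox8b to Cox8a 3.62 ± 0.02 and 3.69 ± 0.04 (SD, n = 2). The exact two-sided permutation p was 0.333 in each pair, the smallest that 2 against 2 allows, and 0.777 after Benjamini-Hochberg adjustment over the 7 pairs compared. In the first pair muHuR-KO-1.9 at 6.01 lay beside Control-3.12 at 6.03, and the difference of -0.30 came mostly from muHuR-KO-3.9 at 5.58, since without that library it was -0.09. For Cox7a1 to Cox7a2 the same libraries were both at 1.77, apart by less than the digits given. The differences of the other pairs were -0.12 and -0.07. The exons of Cox6a2 overlap those of Itgad on the opposite strand over 10.3% of their bases.

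**Figure D4:**
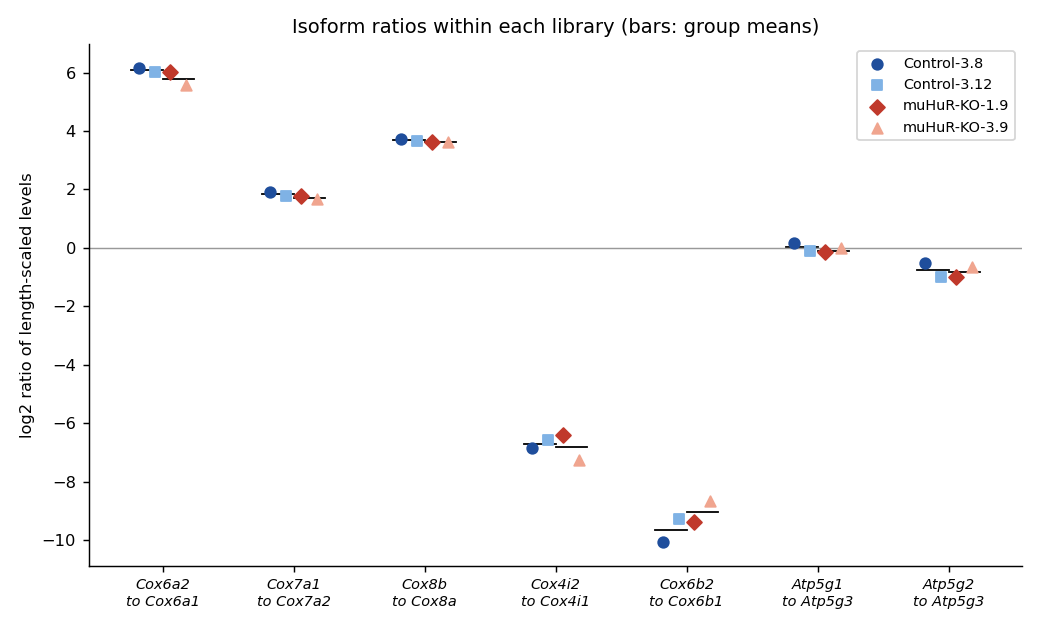
log2 ratio of the length-scaled levels of 2 isoforms of a subunit, 1 point for each library and a short bar at each group mean, for 7 pairs. The 3 muscle-to-ubiquitous pairs of complex IV lie between 1.67 and 6.17, Cox4i2 and Cox6b2 lie far below their ubiquitous partners, and the c-ring genes lie near 0.

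Other forms of complex IV subunits were rare. Cox4i2, known from lung and from the response to low oxygen, had 127.9 normalized counts in Control-3.8, 112.2 in Control-3.12, 117.9 in muHuR-KO-1.9 and 69.46 in muHuR-KO-3.9, against 15160, 11037, 10354 and 11011 for Cox4i1. It was lower in muHuR-KO-3.9 than in the other 3 libraries, and its log2 fold change of -0.40 ± 0.37 (SE), the lowest of the 47, was -0.02 without muHuR-KO-3.9. Cox4i1 resembled Uqcr11, with Control-3.8 high and the other 3 within 10354 to 11037, and its fold change was -0.28 ± 0.28 with both controls and -0.51 ± 0.22 against Control-3.8 (SE). Cox6b2 was at the edge of detection, with 8.79, 12.9, 11.9 and 17.0 normalized counts, and was the only gene of the 47 with a log2 fold change above 0, at 0.38 ± 0.55 (SE). Its partner Cox6b1 had 13989, 11366, 11397 and 9785, where muHuR-KO-1.9 and Control-3.12 were close to each other. The log2 ratios of Cox4i2 to Cox4i1 (-6.83 ± 0.60 against -6.71 ± 0.19, SD, n = 2) and of Cox6b2 to Cox6b1 (-9.03 ± 0.50 against -9.67 ± 0.57) overlapped between groups, with exact permutation p = 1 and 0.667. In complex IV as a whole the median log2 fold change was -0.23 with both controls and -0.05 against Control-3.12 alone, and 13 of 16 genes were higher in muHuR-KO-1.9 than in muHuR-KO-3.9.

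Complex V, ATP synthase, gave the largest share of the reads of these genes. Atp5b had 92740 normalized counts in Control-3.8, 72445 in Control-3.12, 64797 in muHuR-KO-1.9 and 76270 in muHuR-KO-3.9. Control-3.8 was high and muHuR-KO-3.9 exceeded Control-3.12, with a log2 fold change of -0.22 ± 0.31 (SE). Atp5j2, the f subunit of the membrane part and the lowest for its length, had 6221, 4613, 5040 and 4573, and its fold change was -0.16 ± 0.27. Atp5k, the e subunit that helps ATP synthase form dimers, was among the genes nearest to 0, with 5100, 4242, 4825 and 4319 and a fold change of -0.03 ± 0.26. By module, the median was -0.24 over the 5 genes of the F1 part, which holds the catalytic subunits and the central shaft. It was -0.17 over the 4 genes of the peripheral stalk, -0.22 over the 3 of the c ring and -0.16 over the other 3 membrane subunits. Against Control-3.12 alone these medians were -0.04, -0.05, 0.02 and 0.06.

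Within the c ring, whose sequences are given above, Atp5g1 had 12849 normalized counts in Control-3.8, 8640 in Control-3.12, 7830 in muHuR-KO-1.9 and 9735 in muHuR-KO-3.9. Atp5g2 had 5875, 3497, 3241 and 4658, and Atp5g3 had 13658, 11193, 10433 and 11812. All 3 ordered the libraries alike, from Control-3.8 through muHuR-KO-3.9 and Control-3.12 to muHuR-KO-1.9, so the groups overlapped. The spread was widest for Atp5g2, at 0.86 between its highest and lowest library on the log2 scale, and narrowest for Atp5g3, at 0.39. Their fold changes against Control-3.8 were -0.56 ± 0.24, -0.60 ± 0.26 and -0.30 ± 0.23, and against Control-3.12 they were 0.02, 0.15 and -0.01. The log2 ratio of Atp5g1 to Atp5g3 was -0.09 ± 0.10 in the libraries labelled muHuR-KO and 0.03 ± 0.20 in the controls, and that of Atp5g2 to Atp5g3 was -0.82 ± 0.24 and -0.75 ± 0.33 (SD, n = 2), each with an exact permutation p of 0.667.

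The 2 rows outside the complexes were far less abundant. Atp5s, the coupling factor, had 205.1 normalized counts in Control-3.8, 395.5 in Control-3.12, 260.2 in muHuR-KO-1.9 and 235.3 in muHuR-KO-3.9. Here Control-3.12 was the library that stood out, and the log2 fold change changed sign with the control used, 0.27 against Control-3.8 and -0.67 against Control-3.12 (adjusted p = 0.9469 by limma). Atp5sl had 1145, 1227, 1016 and 1043, with both libraries labelled muHuR-KO below both controls and a fold change of -0.20 ± 0.25 (SE).

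Base composition moved with the position of both controls. Over the 47 genes the difference of Control-3.8 from the other 3 libraries correlated with the GC content of the transcript at r = 0.48 (Spearman's rho 0.52), that of Control-3.12 at r = -0.49 (rho -0.35), that of muHuR-KO-1.9 at r = -0.31 (rho -0.20) and that of muHuR-KO-3.9 at r = 0.19 (rho 0.15), given as a description since the genes share the same libraries. In Control-3.8 the 16 genes of lowest GC, from 39% to 49.4%, had a median difference of 0.24, the 16 in the middle 0.38 and the 15 of highest GC, from 55.5% to 61.1%, 0.43. The difference between muHuR-KO-1.9 and muHuR-KO-3.9 correlated less with GC than that of either control (r = -0.26, rho -0.18). With transcript length it correlated at r = -0.27 (rho -0.35). The differences of Control-3.8 and Control-3.12 from the other 3 libraries correlated with length at r = -0.20 and 0.31. After each library was corrected along GC over all genes, Control-3.8 remained higher by a median of 0.29, and the muHuR-KO median was -0.32 against Control-3.8 and -0.19 against both. The corrected fit against Control-3.8 called 2 of the 47 genes lower, Cycs and Cox7b, which is 4.26% of them beside 1.88% of all genes, with 0 higher beside 3.49%. At an unadjusted p under 0.05 it found 10 lower (21.3% beside 7.65% of all genes) and 0 higher, beside 9.63%. The same 2 genes were called higher in the corrected Control-3.8 against the other 3 libraries, beside 1.3% of all genes higher and 2.14% lower, with 11 at an unadjusted p under 0.05 beside 9.54%. With both controls the corrected fit called 0 and had 1 of the 47 lower at an unadjusted p under 0.05 (Atp5s), beside 0.349% of all genes lower and 0.91% higher. Cycs and Cox7b both have GC-poor transcripts, at 40.8% and 42%. Cycs went from -0.03 to -0.90 (adjusted p = 0.0223 by limma). Cox7b, a ubiquitous complex IV subunit with 8011 normalized counts in Control-3.8, 8463 in Control-3.12, 7708 in muHuR-KO-1.9 and 7686 in muHuR-KO-3.9, went from -0.06 to -0.81 (adjusted p = 0.0301). The corrected values of Cycs and Cox7b rest on the GC curve and not on the deposited values. Their calls also rest on the standard errors of the corrected fit, which hardly followed the spread of the mutant pair. These errors were 0.26 for Uqcrb and 0.25 for Cox7b, against 0.31 and 0.22 before the correction. As deposited, the mutant libraries lay 0.79 and 0.00 apart for these genes on the log2 scale. After a like correction for transcript length the median against Control-3.8 was -0.19.

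**Figure D5:**
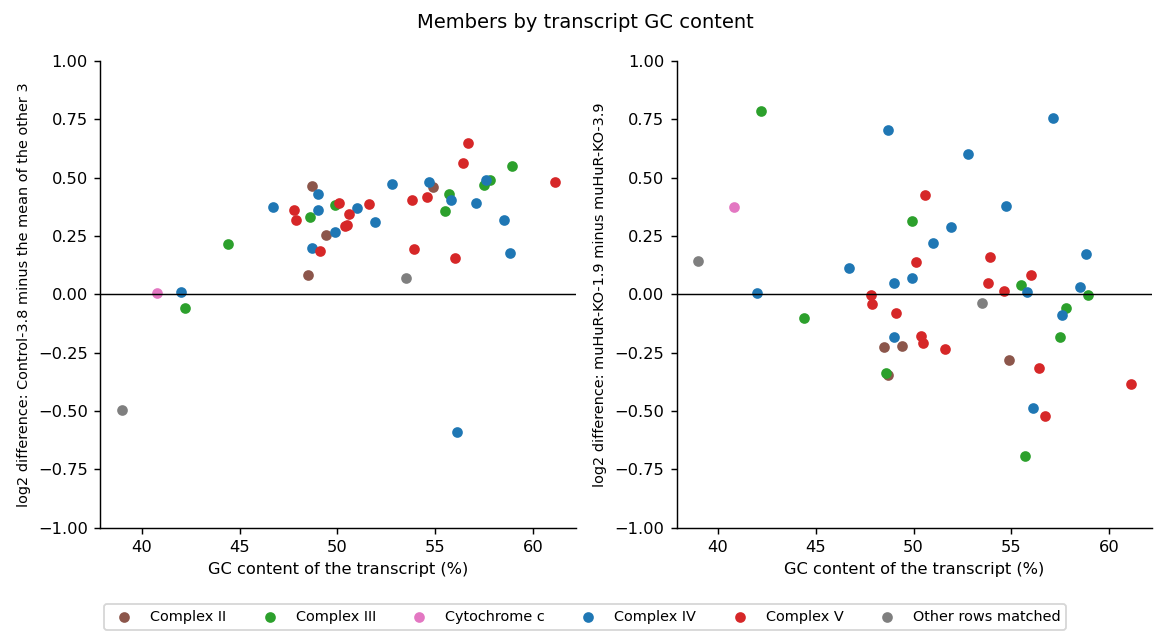
log2 difference of Control-3.8 from the mean of the other 3 libraries (left) and of muHuR-KO-1.9 from muHuR-KO-3.9 (right) against the GC content of the transcript, 1 point for each of the 47 genes, colored by complex. On the left the points rise with GC content (r = 0.48) apart from Cox6b2, the low point of complex IV, and on the right they scatter around 0 (r = -0.26).

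Assembly factors build the complexes but are not part of them. With both controls the median log2 fold change was -0.19 over the 2 tested factors of complex II, -0.26 over 3 of complex III, -0.11 over 17 of complex IV and -0.04 over 4 of complex V. None was called with both controls or, as deposited, with Control-3.8 alone. After the GC correction Cox16 was called lower against Control-3.8, at -1.18 (adjusted p = 0.00182 by limma), from -0.08 before. Coa3, a complex IV factor named after its values were seen, had an unadjusted p under 0.05 against Control-3.8, with a log2 fold change of -0.50 ± 0.22 (SE) and an adjusted p of 0.2154 by limma. The name rule missed 3 further subunits, Ndufa4 of complex IV and Usmg5 and 2010107E04Rik of complex V. Their log2 fold changes with both controls were -0.10, -0.14 and 0.00. Against Control-3.8 they were -0.27, -0.27 and -0.15 as deposited, and -0.80, -0.79 and -0.81 after the GC correction. All 3 transcripts are GC-poor (44.1%, 44.2% and 42.9%), as is that of Cox16 (38.1%). Like those of Cycs and Cox7b, these corrected values and that of Cox16 rest on the GC curve and not on the deposited values. The call of Cox16 also rests on the standard errors of that fit.

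Regulators known to drive respiratory genes were taken as a further list. Over 11 such genes the median log2 fold change was 0.02 with both controls and 0.30 against Control-3.8, and Control-3.8 lay below the other 3 libraries by a median of -0.37. None was called with both controls. Against Control-3.8 1 of the 11 was called, beside 9.69% of all tested genes called higher. It was Gabpa, the DNA-binding subunit of the ETS-family factor GABP, which rose by 1.18 ± 0.21 (SE, adjusted p = 0.009447 by limma). Its normalized count was 687.5 in Control-3.8, 1764 in Control-3.12, 1560 in muHuR-KO-1.9 and 1567 in muHuR-KO-3.9, so Control-3.12 was above both libraries labelled muHuR-KO and the difference with both controls was 0.51 ± 0.43. After the GC correction the value against Control-3.8 was 0.61 and no longer called (adjusted p = 0.13 by limma). Gabpa overlaps the exons of Atp5j on the opposite strand over 12.7% of the exonic bases of Atp5j. Ppargc1a, the coactivator PGC-1alpha, had 1563 normalized counts in Control-3.8, 2695 in Control-3.12, 4126 in muHuR-KO-1.9 and 2426 in muHuR-KO-3.9. Only muHuR-KO-1.9 exceeded both controls, with a log2 fold change of 0.62 ± 0.37 with both controls (adjusted p = 0.9999) and 1.02 ± 0.30 against Control-3.8 (adjusted p = 0.06662 by limma). After the GC correction the latter was 0.23 (adjusted p = 0.672).

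Markers of fiber type and of other cells moved with the libraries too. The 7 slow fiber genes were higher in Control-3.8 than in the other 3 libraries by a median of 0.75 on the log2 scale, with summed levels of 1659149 normalized counts in Control-3.8 and 1019881 to 1164517 in the others. Acta1, Ckm and Des, which define skeletal muscle, were likewise highest in Control-3.8, while Ttn, with its very long transcript, was lowest there. The 6 fibroblast genes were higher in muHuR-KO-1.9 by a median of 0.77 and lower in Control-3.8 by -0.49, and the 4 tendon genes by 0.83 and -0.56. Their summed levels were 38121 and 43133 in the controls and 71994 and 43176 in the libraries labelled muHuR-KO for fibroblast, and 7401, 8386, 14370 and 8694 for tendon. The tendon genes did not all move alike. Scx was highest in Control-3.8, at 612.3 normalized counts, with 237.3 in Control-3.12, 472.9 in muHuR-KO-1.9 and 370.7 in muHuR-KO-3.9. Thbs4 was lowest in Control-3.12. The 4 macrophage genes found had sums of 484.3 and 669.6 in the controls and 999.2 and 632.3 in the libraries labelled muHuR-KO. The sums ran from 8134 to 11063 for the 5 adipocyte genes, all detected, from 11247 to 16120 for the 4 endothelial genes and from 1187105 to 1485132 for the 9 fast fiber genes. Of the erythroid genes found, Hba-a1 was at 0 and Hba-a2 had 55.66 and 58.86 normalized counts in the controls, 143.1 in muHuR-KO-1.9 and 29.06 in muHuR-KO-3.9. The adipocyte sum was mostly Fabp4. The median of the adipocyte genes against the other 3 libraries was -1.02 in Control-3.8 and 1.04 in Control-3.12, with Adipoq at 166 and 568.4 normalized counts in these libraries. Among fast fiber genes the controls also differed, with Myh4 at 21982 in Control-3.8 and 1702 in Control-3.12 and Myh1 at 54545 and 229802. Ucp1, which defines brown fat, was at 0 reads in all libraries, while Cidea, the other brown fat gene, had between 143.5 and 199.2 normalized counts. None of these lists had a gene called with both controls. Against Control-3.8 alone the log2 fold change was 1.51 for Myh1, 1.05 for Tnmd of tendon, 1.49 for Cd163 of macrophages and 2.19 for Lep of adipocytes. After the GC correction these were 1.63, 0.40, 1.32 and 2.06. In the corrected fit Myh4 was at -1.70, Col1a1 at 0.89, Col1a2 at 0.93, Fmod at 0.98 and Plin1 at 1.02. The mutant libraries differed widely for some of these genes. Myh4 had 18766 normalized counts in muHuR-KO-1.9 and 2021 in muHuR-KO-3.9, and Col1a1 had 19534 and 9455, against 8638 in Control-3.8. These genes were picked out after their values were seen, and a single control gives no spread of its own. The part of these cell types in the level of the respiratory genes was not tested.

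Short elements in the promoters of the respiratory genes are given as a description, and their part in the level of any library was not tested. Windows from 250 bases before to 50 after the start were taken from RefSeq (GRCm38.p6) and searched on both strands for the core letters of factors linked to respiratory genes, and 38 of the 49 genes matched the RefSeq table. The GABP core CCGGAAG was found for 12 of the 38 (31.6%), beside 9.93% of all genes with a window, and the NRF1 core TGCGCA for 8 (21.1%), beside 8.79%. The ERR element AAGGTCA was found for 5 (13.2%), beside 5.38%, and the YY1 core ATGGCGG for 3 (7.89%), beside 4.69%. The 3 windows below give the ubiquitous Cox8a, its muscle form Cox8b, and Sdhd, a membrane anchor of complex II with matches to 3 of the elements. All lie on the minus strand and are written 5′ to 3′ along the gene, with matches in capitals.
Cox8a, chr19:7217567-7217866: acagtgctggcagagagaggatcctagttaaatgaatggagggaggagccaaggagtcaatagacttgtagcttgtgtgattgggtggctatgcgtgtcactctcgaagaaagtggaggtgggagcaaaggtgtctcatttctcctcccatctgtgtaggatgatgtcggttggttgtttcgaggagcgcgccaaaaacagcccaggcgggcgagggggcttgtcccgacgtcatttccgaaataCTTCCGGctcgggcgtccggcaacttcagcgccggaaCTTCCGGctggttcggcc
Cox8b, chr7:140900397-140900696: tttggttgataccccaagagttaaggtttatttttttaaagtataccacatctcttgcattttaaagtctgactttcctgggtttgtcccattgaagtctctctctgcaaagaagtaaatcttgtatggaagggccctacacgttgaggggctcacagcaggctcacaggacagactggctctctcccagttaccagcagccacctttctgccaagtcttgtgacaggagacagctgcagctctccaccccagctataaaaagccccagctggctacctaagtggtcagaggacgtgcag
Sdhd, chr9:50603800-50604099: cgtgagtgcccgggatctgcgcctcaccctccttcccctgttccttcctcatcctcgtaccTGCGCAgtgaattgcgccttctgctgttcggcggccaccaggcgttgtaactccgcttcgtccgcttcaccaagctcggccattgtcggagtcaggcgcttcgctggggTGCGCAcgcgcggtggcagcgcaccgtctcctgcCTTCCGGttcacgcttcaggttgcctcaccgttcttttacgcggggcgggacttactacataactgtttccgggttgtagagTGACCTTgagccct
Cox8a holds the reverse complement of the GABP core at 2 places, Cox8b holds none of the 4 elements, and Sdhd holds 2 NRF1 cores, 1 GABP core and 1 ERR element. A match is a description of the letters and not of a bound site. On the length-scaled scale Cox8b, without a match, had 19871 normalized counts per kilobase and Cox8a 1568.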

How the data were processed

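RNA of the soleus of 2 muHuR-KO and 2 control mice was extracted with TRIzol and sequenced as paired ends. Per the labels and the study's methods, the authors aligned reads with TopHat2 2.0.10 to GRCm38/mm10, assigned them to genes with HTSeq 0.6.1 and normalized the gene counts with DESeq2. The DESeq2 version, annotation, strand setting and filters are not given in the sources used here. The deposited values are a signal, gene counts divided by the authors' size factors, and 100% of them came out whole within 0.01 when multiplied back, which recovered 13301715 to 33348893 reads per library. The table's 7 other columns (its mean and the authors' fold changes, errors, statistics and p-values) were not used.

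The 13287 genes averaging 10 normalized counts or more entered limma 3.58.1 (trend) in R 4.3.3 on log2(normalized count + 1), with Benjamini-Hochberg adjustment over all of them at 0.05. A fold change on this scale understates that of low genes. In the fit against Control-3.8 alone, Control-3.12 was a group of its own, only the muHuR-KO pair gave a spread (1 residual degree of freedom, 8.34 prior), which the single control was taken to share. With both controls there were 2 residual and 5.62 prior degrees of freedom. These prior values belong to the uncorrected fits, and those of the GC-corrected fits are not given. Isoform ratios were tested with an exact permutation test over libraries. Recovered reads in edgeR 4.0.16 and in DESeq2 1.42.0, other pseudocounts, filters, TMM factors, GC and length corrections and each library left out were alternatives, and edgeR and DESeq2 for single libraries were added after seeing the data. The fits were also run on simulated counts, with the same spread for all genes and libraries, taken from the muHuR-KO pair. The spread of the controls was not used, so that run does not check results that turn on Control-3.8. Lengths, GC content and coding stretches came from GENCODE M21 for all 49 genes (99.3% of tested genes), 1 transcript a gene.

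The name rule used no measured value, but it and the lists were set with earlier results of these data known. Values are given per library for isoform pairs, the highest and lowest level of each complex, the 4 largest changes each way, the 4 widest gaps and genes called under a setting, and other genes are given by counts and ranges. Replicates of a group differed by far more than sampling noise (chi-square per degree of freedom 147.5 for the controls and 65.4 for muHuR-KO).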

Additional observations from a re-analysis of the deposited data

How the results depend on the processing

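With both controls, 0 of the 47 genes were called under every alternative that gave a test, and the median log2 fold change stayed between -0.20 and -0.16 under the other pseudocounts, filters, TMM factors, edgeR, DESeq2, GC and length corrections. Leaving out each library moved that median between -0.37 (without Control-3.12) and -0.027 (without Control-3.8). Against Control-3.8 alone the median was -0.19 after the length correction and lay between -0.372 and -0.313 with a library left out. The GC correction moved the log2 fold change against Control-3.8 from -0.03 to -0.90 for Cycs and from -0.06 to -0.81 for Cox7b. The limits of that fit are given above. Leaving out a library moved the log2 difference of the isoform ratios from -0.52 to -0.09 for Cox6a2 to Cox6a1, -0.19 to -0.05 for Cox7a1 to Cox7a2, -0.10 to -0.04 for Cox8b to Cox8a, -0.55 to 0.30 for Cox4i2 to Cox4i1, 0.24 to 1.04 for Cox6b2 to Cox6b1, -0.26 to 0.03 for Atp5g1 to Atp5g3 and -0.30 to 0.16 for Atp5g2 to Atp5g3. The causes of these shifts were not tested. Of the single genes described, 13 of 363 values under alternatives moved by more than their standard error with both controls. Of these, 3 did not come from leaving out a library. Against Control-3.8 it was 13 of 337, of which 7 did not, besides Cycs and Cox7b after the GC correction. No fit against Control-3.8 can be made without that library, and with 1 muHuR-KO library left out it gave a median but no test. No paired analysis was possible because the labels number the mice without linking a muHuR-KO mouse to a control mouse. With 2 libraries in a group and standard errors of 0.25 to 0.55, differences of the size seen here were not detectable as calls.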
